A study of Caenorhabditis elegans with 7 samples.

Results

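The 28 genes described here encode proteins of the spliceosome and its helpers, and the values are small RNA reads that cross their splice junctions in Caenorhabditis elegans embryos. The genes were chosen by name, as the rows of the deposited junction table that belong to snRNP, Sm, LSm, SR and other splicing proteins, and they are 28 of the 3717 genes in that table. All 28 passed the filter on low reads and were among the 3551 genes tested for spliced reads. The tested genotypes were rnp-2(mg582), with 1 library in each of 2 experiments, rnp-2(tm4058), with 1 library in experiment 2, and mog-2(ok1221) and rnp-3(ok1424), with 1 library each in experiment 1. They were set against wildtype N2, with 1 library per experiment, and all 5 genotypes share the N2 background, growth at 20 °C unless marked otherwise and collection of embryos by hypochlorite treatment of adults. The labels state neither what each allele does to its protein nor whether the 2 libraries of a genotype had separate cultures as their source. P-values thus reflect the variation among the sequenced libraries, and that variation could be purely technical.

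As background, the spliceosome removes introns in a series of steps carried out by small nuclear ribonucleoproteins. The U1 snRNP binds the donor site at the start of an intron, U2 binds near its end, and the tri-snRNP of U4, U6 and U5 joins them before RNA helicases remodel the assembly. In C. elegans many transcripts are also templates for RNA-dependent RNA polymerases, which make antisense small RNAs. A small RNA that crosses an exon-exon junction was copied from a spliced transcript, and one that crosses an intron-exon boundary from a transcript that still held the intron. The gene rnp-2 encodes a protein like the A protein of the U1 snRNP, while the products of rnp-3 and mog-2 resemble proteins of the U2 snRNP. The comparison asked whether splicing genes themselves gain or lose small RNAs when one of these components is mutated.

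Junctions of the most-read genes, and those of the mutated genes, are shown first because the counted reads cross these sites. Each donor is 5 bases of exon and 10 of intron, each acceptor is 10 bases of intron and 5 of exon, both 5′ to 3′ on the strand of the gene, taken from the deposited table. Capitals mark the GT and AG that bound the intron, and coordinates are those of the intron in WBcel235, counted from 1. The genes rsp-4 and snrp-200 had the most reads summed over their junctions, and their leading junctions are given, those of rnp-2 and rnp-3 lie in mutated genes, and those of snr-3 and lsm-4 belong to genes whose tests passed in some fit.
rsp-4 intron 4 donor (II:5387852-5387894, minus strand): gatctGTaagttact
rsp-4 intron 4 acceptor: ataatttcAGccgcg
snrp-200 intron 3 donor (II:12734251-12734308, minus strand): ttcagGTaggggaat
snrp-200 intron 3 acceptor: tatttttcAGgtgct
snrp-200 intron 5 donor (II:12732492-12732604, minus strand): cacagGTaaggaatc
snrp-200 intron 5 acceptor: aatttttcAGgtatt
rnp-2 intron 2 donor (IV:4172397-4172472, plus strand): caatgGTactatatt
rnp-2 intron 2 acceptor: atttttccAGagaat
rnp-2 intron 3 donor (IV:4172694-4173738, plus strand): aatcaGTgcgtggcg
rnp-2 intron 3 acceptor: atttttccAGattcg
rnp-3 intron 2 donor (IV:4175167-4176002, plus strand): agccaGTaagtggct
rnp-3 intron 2 acceptor: attttttcAGattcc
snr-3 intron 1 donor (II:6489461-6489674, minus strand): gtccgGTgagtattt
snr-3 intron 1 acceptor: ttttatttAGgcact
lsm-4 intron 3 donor (II:7252554-7252603, minus strand): aaacaGTaagtacct
lsm-4 intron 3 acceptor: attcttccAGgtggt

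Both rnp-2 donors, which lie in the gene of a U1 protein, matched the donor consensus CAGGTAAGT at 4 of 9 positions, the lowest number among the splicing genes, shared with a donor of rsp-2. Donor matches of the splicing genes ran from 4 to 8 with a median of 6, and the median over 7178 GT-AG junctions of all genes was also 6. GTAAG at the donor was found at 15 of 42 GT-AG junctions of the splicing genes (35.7%), against 25.3% of all junctions. TTTCAG at the acceptor was found at 21 of 42 (50%), against 50.6% of all. Both motifs were read on the gene's strand only, and a match is a description of the letters.

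The 28 genes had 44 listed junctions, 43 of them introns in the annotation, of 150 annotated introns in these genes (28.7%). The table lists only junctions that reached about 0.505 CPM in some column, so the other introns were below that level or not used here. Of the 44 junctions, 42 lay between coding exons of an annotated transcript. Of the listed introns, 15 were the first and 13 the last of their transcript, 1 of them both. Intron length ran from 42 to 8510 bases with a median of 62, and 18 of the 28 genes had a single listed junction. The line given as snr-6 lies 1551 bases beyond the annotated gene (III:12429172-12429629, minus strand), inside Y49E10.16 on the other strand. Its reads, 12 in rnp-2(mg582) 1, 4 in mog-2(ok1221) and 2 in wildtype 1, were all from experiment 1. The last listed junction of smu-1 lies in the 3′ UTR of its transcript and overlaps pmr-1, and it had reads in experiment 1 only.

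Library totals ran from 9901228 to 142819946 reads, of which 73844 to 474218 crossed spliced junctions of all listed genes. Spliced junction reads were 1.22% to 1.88% of the libraries of experiment 1. In experiment 2 they were 0.215% of rnp-2(mg582) 2, 0.0517% of rnp-2(tm4058) and 0.537% of wildtype 2. Levels below are therefore scaled CPM, the deposited CPM (reads relative to the library total) divided by TMM factors that were computed on spliced reads and set the bulk of junctions equal. A change in scaled CPM is relative to other junctions, and directions in experiment 2 depend on this scaling. By library size alone 25 of the 28 splicing genes were below wildtype 2 in rnp-2(mg582) 2 and 27 in rnp-2(tm4058), against 10 in each by scaled CPM. Over all tested genes the median log2 difference from wildtype 2 by library size was -0.36 and -0.60 in these libraries. Markers of germline and maternal tissue were measured for 7 of 7 genes, with summed levels of 7.02 to 8.94 scaled CPM in the mutants and 8.45 to 9.02 in wildtype. Of the sperm markers 3 of 5 were measured, with sums of 1.55 and 1.75 in rnp-2(mg582), 1.16 in rnp-2(tm4058), 2.93 in mog-2(ok1221), 1.97 in rnp-3(ok1424), and 3.57 and 2.91 in wildtype. The sperm gene spe-41 fell in rnp-2(mg582) (log2 -1.43, adjusted p = 0.0147 in limma) and in rnp-2(tm4058) (-1.99, adjusted p = 0.0123). In these fits 8.36% and 8% of all tested genes passed. Of the wildtype sperm sums, spe-41 made up 2.86 and 2.14 scaled CPM. The median log2 change of the 3 measured sperm markers was -0.01 in rnp-2(mg582) and 0.13 in rnp-2(tm4058). None of the 5 intestine markers was measured, and 2 of 5 muscle, 4 of 5 neuron and 2 of 5 zygotic markers were, none of which passed. The muscle markers summed to 1.26 and 0.783 scaled CPM in rnp-2(mg582), 1.41 in rnp-2(tm4058), 0.792 in mog-2(ok1221), 1.73 in rnp-3(ok1424), and 2.65 and 1.27 in wildtype. The neuron markers summed to 15.0 scaled CPM in mog-2(ok1221), 25.2 to 36.8 in the other mutants and 36.5 and 28.2 in wildtype. The part of any of these markers in the results below was not tested.

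Small RNAs of the splicing genes were few. Their spliced reads came to 3550 over the 7 libraries, and the median gene had 58, with 19 genes under 100. The 28 genes held 0.233% (95% exact binomial interval 0.211% to 0.256%) and 0.244% (0.223% to 0.267%) of all spliced reads in rnp-2(mg582). The share was 0.275% (0.238% to 0.315%) in rnp-2(tm4058), 0.223% (0.205% to 0.243%) in mog-2(ok1221) and 0.188% (0.169% to 0.208%) in rnp-3(ok1424). In wildtype it was 0.202% (0.186% to 0.219%) and 0.205% (0.193% to 0.218%). Both rnp-2(mg582) libraries, rnp-2(tm4058) and mog-2(ok1221) thus had a higher share than either wildtype library, while rnp-3(ok1424) had a lower one. Several of the 28 genes reached the listing level of about 0.505 CPM only in mog-2(ok1221). Its share, with or without rsp-4 and snrp-200, is thus in part built into the listing. The intervals of mog-2(ok1221), rnp-3(ok1424) and the rnp-2(mg582) library with 0.233% overlapped both wildtype intervals. Those of the other rnp-2(mg582) library and of rnp-2(tm4058) lay above them. These intervals cover counting error only, since reads are not independent molecules. The genes rsp-4 and snrp-200 supplied 42% of the reads, and the share without them was 0.143% and 0.134% in rnp-2(mg582), 0.154% in rnp-2(tm4058), 0.154% in mog-2(ok1221), 0.102% in rnp-3(ok1424), and 0.117% and 0.111% in wildtype.

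**Figure D1:**
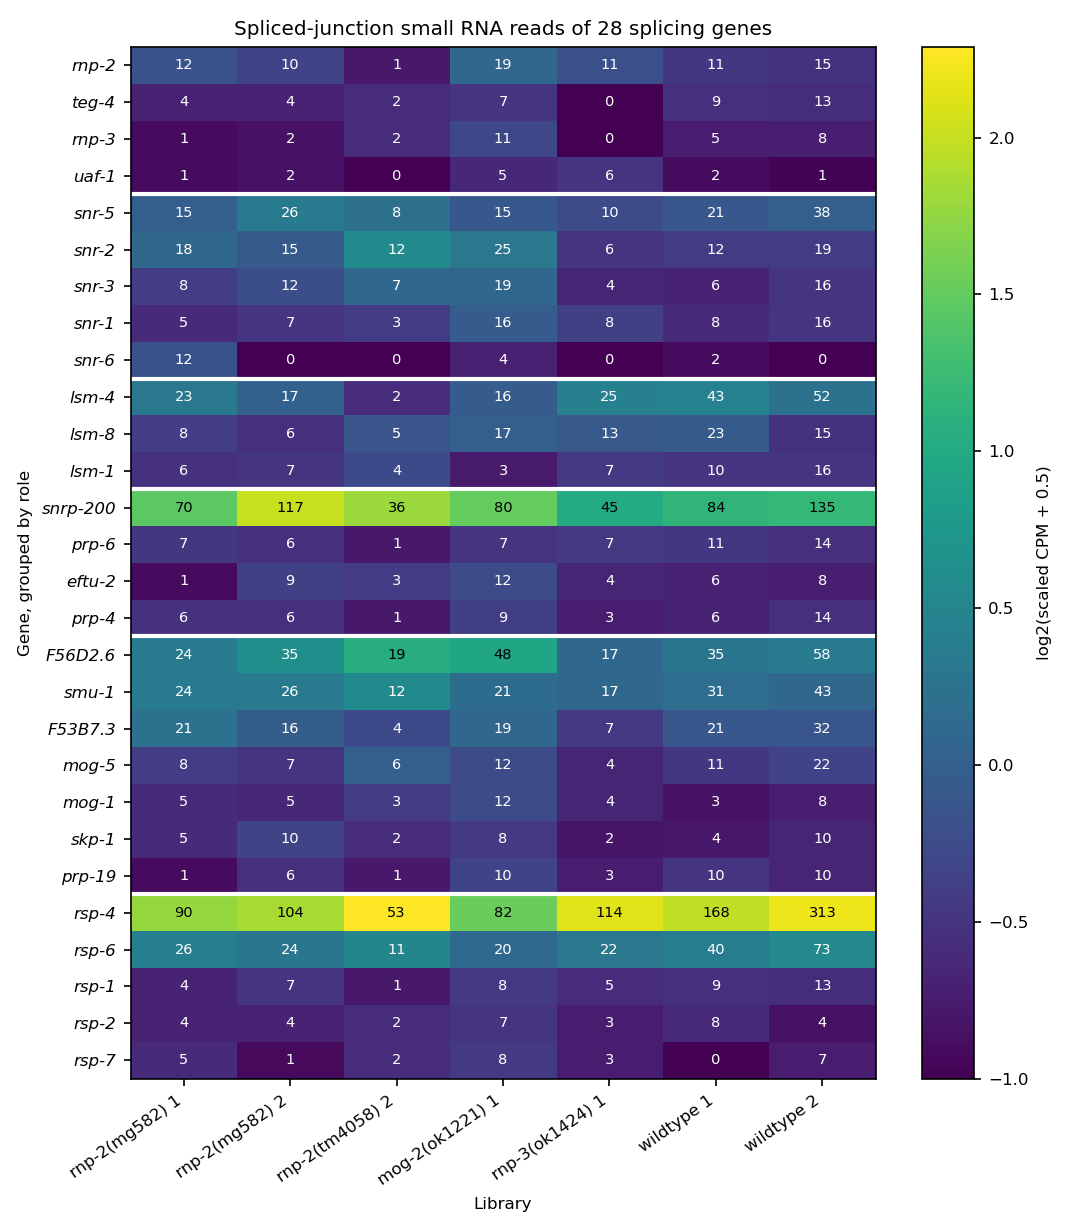
Spliced reads of the 28 splicing genes (rows, grouped by role) in the 7 libraries (columns, mutants left and wildtype right). Numbers in cells are reads and colour is log2(scaled CPM + 0.5). Only rsp-4 and snrp-200 stand out as bright rows, and most cells hold under 30 reads.

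Per listed junction the splicing genes sat below the middle of the table in wildtype. Their median was 0.173 scaled CPM per junction, against 0.236 for the median of all tested genes, and 20 of the 28 were below that gene. The highest was rsp-4 with 1.26 per junction, above 91.6% of tested genes, followed by F56D2.6 with 0.739 (above 84.9%) and rsp-6 with 0.445 (above 75.1%). The lowest were snr-6 with 0.0204 per junction, uaf-1 with 0.0270 and rsp-7 with 0.0461. Of all tested genes 76.4% had a mean under 1 scaled CPM over the 7 libraries, as did 26 of these 28.

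Among U1 and U2 proteins, rnp-2, the gene mutated in 3 of the libraries, kept its junction reads in rnp-2(mg582). It had 12 and 10 reads in rnp-2(mg582), 1 in rnp-2(tm4058), 19 in mog-2(ok1221), 11 in rnp-3(ok1424), and 11 and 15 in wildtype. In scaled CPM these were 0.387 and 0.301 in rnp-2(mg582), 0.0828 in rnp-2(tm4058), 0.557 in mog-2(ok1221), 0.374 in rnp-3(ok1424), and 0.224 and 0.198 in wildtype. Both rnp-2(mg582) libraries were above wildtype in scaled CPM, and rnp-2(tm4058) was the only library below it. By library size rnp-2 had 0.107 CPM in rnp-2(mg582) 2, below 0.170 in wildtype 2. In experiment 1 it had 0.823 CPM in rnp-2(mg582) 1, above 0.528 in wildtype 1. The log2 change was 0.25 ± 0.17 SE in rnp-2(mg582) (limma adjusted p = 0.445) and -0.29 ± 0.21 in rnp-2(tm4058) (adjusted p = 0.398). The single rnp-2(tm4058) read crossed intron 3, and intron 2 had 0, where the 2 rnp-2(mg582) libraries had 8 and 7 and wildtype 8 and 7. With 1 read the 95% exact Poisson interval of rnp-2 in rnp-2(tm4058) ran from 0.00210 to 0.461 scaled CPM and covered both wildtype values.

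The neighbouring gene rnp-3, with 72 bases between it and the end of rnp-2 on the plus strand of chromosome IV, had 0 reads in rnp-3(ok1424). It had 1 and 2 reads in rnp-2(mg582), 2 in rnp-2(tm4058), 11 in mog-2(ok1221), and 5 and 8 in wildtype. The scaled levels were 0.0323 and 0.0603 in rnp-2(mg582), 0.166 in rnp-2(tm4058), 0.322 in mog-2(ok1221), and 0.102 and 0.105 in wildtype. A count of 0 in rnp-3(ok1424) allows up to 3 reads, 0.102 scaled CPM, so a loss was not detectable at this depth. The log2 change was -0.27 ± 0.14 SE in rnp-3(ok1424) (limma adjusted p = 0.491) and -0.14 ± 0.11 in rnp-2(mg582) (adjusted p = 0.508). The reads at rnp-2 and rnp-3 check the labels only where a deletion covers the listed junctions, which the labels do not state. The gene mog-2 was looked for and was not found among the genes of the junction table.

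The other pair of this group is involved in recognising the intron's end. The gene teg-4, which encodes a protein like an SF3b subunit of the U2 snRNP, had 4 and 4 reads in rnp-2(mg582), 2 in rnp-2(tm4058), 7 in mog-2(ok1221), 0 in rnp-3(ok1424), and 9 and 13 in wildtype. The gene uaf-1, the large U2AF subunit that binds the acceptor, had 1 and 2 reads in rnp-2(mg582), 0 in rnp-2(tm4058), 5 in mog-2(ok1221), 6 in rnp-3(ok1424), and 2 and 1 in wildtype. The smallest adjusted p of the pair was 0.236, for uaf-1 in mog-2(ok1221).

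The Sm proteins form the ring around the snRNAs of U1, U2, U4 and U5. The 5 genes summed to 1.87 and 1.81 scaled CPM in rnp-2(mg582), 2.48 in rnp-2(tm4058), 2.32 in mog-2(ok1221), 0.951 in rnp-3(ok1424), and 0.9997 and 1.17 in wildtype. The rnp-2 and mog-2(ok1221) libraries were all above wildtype and rnp-3(ok1424) was below. Both snr-1 junctions reached the listing level of about 0.505 CPM only in mog-2(ok1221), so the sum there is in part built into the listing. Without the snr-6 line, which lies outside its gene, the sums were 1.49 and 1.81 in rnp-2(mg582), 2.20 in mog-2(ok1221), and 0.959 and 1.17 in wildtype, with no change in the others. As CPM by library size the sums were 3.98 and 0.641 in rnp-2(mg582), 0.210 in rnp-2(tm4058), 6.05 in mog-2(ok1221), 2.83 in rnp-3(ok1424), and 2.35 and 1.01 in wildtype. On that scale both rnp-2 libraries of experiment 2 were below their wildtype library, so the direction in experiment 2 depends on the scaling.

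Within this group snr-2, which encodes SmB, had the largest difference. Its reads were 18 and 15 in rnp-2(mg582), 12 in rnp-2(tm4058), 25 in mog-2(ok1221), 6 in rnp-3(ok1424), and 12 and 19 in wildtype. Its scaled levels were 0.581 and 0.452 in rnp-2(mg582), 0.993 in rnp-2(tm4058), 0.733 in mog-2(ok1221), 0.204 in rnp-3(ok1424), and 0.245 and 0.250 in wildtype. In scaled CPM all 3 rnp-2 libraries and mog-2(ok1221) lay above both wildtype libraries, and rnp-3(ok1424) below them, while by library size snr-2 had 0.160 CPM in rnp-2(mg582) 2 and 0.0840 in rnp-2(tm4058), both below 0.215 in wildtype 2. The reads of snr-3, which encodes an SmD protein, were 8 and 12 in rnp-2(mg582), 7 in rnp-2(tm4058), 19 in mog-2(ok1221), 4 in rnp-3(ok1424), and 6 and 16 in wildtype. In scaled CPM snr-3 had 0.258 and 0.362 in rnp-2(mg582), 0.579 in rnp-2(tm4058), 0.557 in mog-2(ok1221), 0.136 in rnp-3(ok1424), and 0.122 and 0.211 in wildtype, so rnp-3(ok1424) lay between the wildtype libraries. By library size snr-3 too was below wildtype 2 (0.181 CPM) in rnp-2(mg582) 2 (0.128) and rnp-2(tm4058) (0.0490). The other Sm genes were snr-5 (SmF) with 133 reads over the 7 libraries, snr-1 (an SmD protein) with 63 and snr-6 (SmE) with the 18 reads at the line outside its annotated gene.

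**Figure D2:**
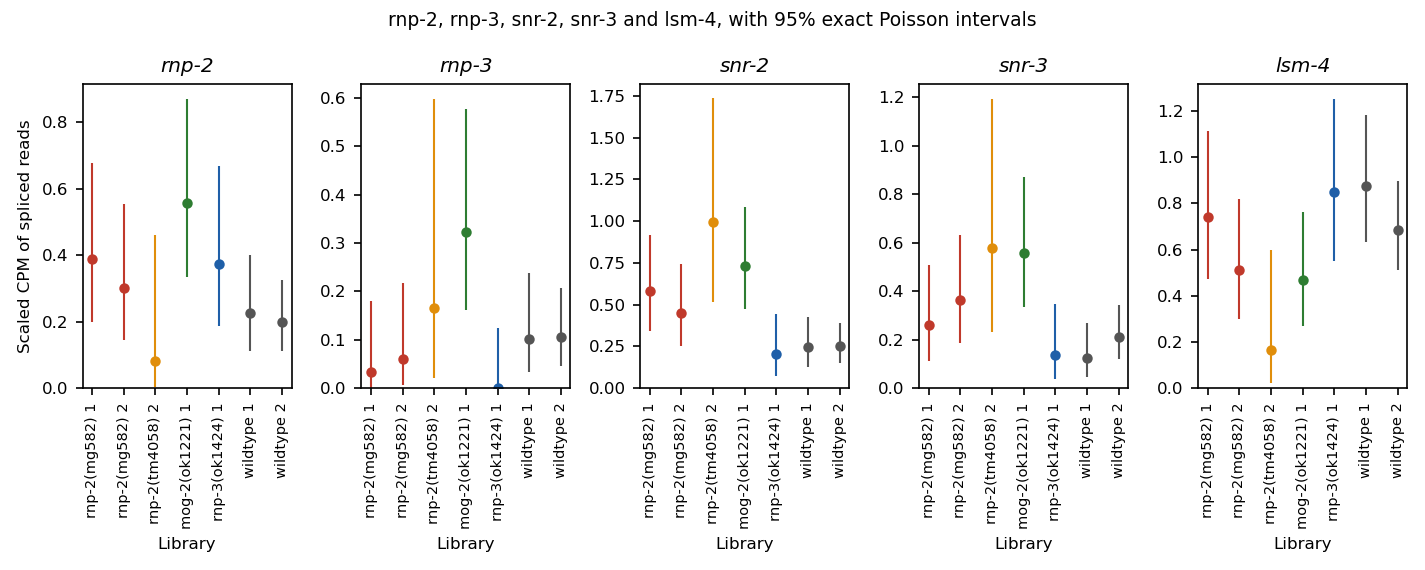
Scaled CPM of spliced reads of rnp-2, rnp-3, snr-2, snr-3 and lsm-4 in each library (mutants left, wildtype right), with 95% exact Poisson intervals of the read counts. For snr-2 the rnp-2(tm4058) point at 0.993 lies above both wildtype points at 0.245 and 0.250 (by library size it is 0.0840 CPM, below 0.215 in wildtype 2), and for lsm-4 it lies at 0.166, below 0.877 and 0.685 in wildtype.

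The LSm proteins form like rings, lsm-8 in the nuclear ring on U6, lsm-1 in the cytoplasmic ring of mRNA decay, and lsm-4 in both. Their 3 genes summed to 1.19 and 0.904 scaled CPM in rnp-2(mg582), 0.911 in rnp-2(tm4058), 1.06 in mog-2(ok1221), 1.53 in rnp-3(ok1424), and 1.55 and 1.09 in wildtype, so the groups overlapped. The reads of lsm-4 were 23 and 17 in rnp-2(mg582), 2 in rnp-2(tm4058), 16 in mog-2(ok1221), 25 in rnp-3(ok1424), and 43 and 52 in wildtype. The scaled levels of lsm-4 were 0.743 and 0.512 in rnp-2(mg582), 0.166 in rnp-2(tm4058), 0.469 in mog-2(ok1221), 0.849 in rnp-3(ok1424), and 0.877 and 0.685 in wildtype. Lowest was rnp-2(tm4058), where both reads crossed intron 3, while introns 1 and 2 had none. The gene lsm-8 had 8 and 6 reads in rnp-2(mg582), 5 in rnp-2(tm4058), 17 in mog-2(ok1221), 13 in rnp-3(ok1424), and 23 and 15 in wildtype. Reads of lsm-1 ran from 3 to 7 in the mutants and were 10 and 16 in wildtype.

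Among U5 and tri-snRNP proteins snrp-200, the helicase like Brr2 that unwinds U4 from U6, held most reads. It had 70 and 117 reads in rnp-2(mg582), 36 in rnp-2(tm4058), 80 in mog-2(ok1221), 45 in rnp-3(ok1424), and 84 and 135 in wildtype. Its scaled levels were 2.26 and 3.53 in rnp-2(mg582), 2.98 in rnp-2(tm4058), 2.35 in mog-2(ok1221), 1.53 in rnp-3(ok1424), and 1.71 and 1.78 in wildtype. In scaled CPM the mutant libraries lay above wildtype apart from rnp-3(ok1424), which was lowest. By library size both rnp-2 libraries of experiment 2 were below wildtype, with 1.25 CPM in rnp-2(mg582) 2 and 0.252 in rnp-2(tm4058) against 1.53 in wildtype 2. Reads were spread over 6 of its 11 introns, 36.3% of them at intron 3 and 24.3% at intron 5. The other members, eftu-2 (a GTPase of the U5 snRNP), prp-6 (a bridge between U5 and the other snRNPs) and prp-4 (a U4/U6 protein), had 43, 53 and 45 reads over the 7 libraries.

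The helicases and proteins of the Prp19 complex summed to 2.84 and 3.16 scaled CPM in rnp-2(mg582), 3.89 in rnp-2(tm4058), 3.81 in mog-2(ok1221), 1.83 in rnp-3(ok1424), and 2.35 and 2.41 in wildtype. The rnp-2 and mog-2(ok1221) libraries were above wildtype in scaled CPM, and by library size both experiment 2 rnp-2 libraries were below it, with 1.12 in rnp-2(mg582) 2 and 0.329 in rnp-2(tm4058) against 2.07 CPM in wildtype 2. The largest contributor, F56D2.6 (named ddx-15 in the annotation), encodes a helicase like the one that takes the spent spliceosome apart. It had 24 and 35 reads in rnp-2(mg582), 19 in rnp-2(tm4058), 48 in mog-2(ok1221), 17 in rnp-3(ok1424), and 35 and 58 in wildtype. The gene smu-1, known for its part in alternative splicing of unc-52, had 174 reads over the 7 libraries, and F53B7.3 (isy-1 in the annotation) had 120. The remaining members were mog-5 (70 reads) and mog-1 (40), both DEAH-box helicases that act at and after the catalytic steps, skp-1 (41), a SKIP homolog, and prp-19 (41), a ubiquitin ligase. The level of mog-1 was the only 1 of the 28 that was higher in all 5 mutant libraries than in both wildtype libraries, with 0.161 and 0.151 scaled CPM in rnp-2(mg582), 0.248 in rnp-2(tm4058), 0.352 in mog-2(ok1221), 0.136 in rnp-3(ok1424), and 0.0612 and 0.105 in wildtype. These rest on 3 to 12 reads per library, and such a separation upward was found in 5.35% of all tested genes and 0.31% by library size, where mog-1 was not among them. The mog-1 junction reached the listing level of about 0.505 CPM only in mog-2(ok1221) (0.918 CPM). So did those of prp-19 and skp-1, so the mog-2(ok1221) sum of this group is in part built into the listing. None of the 28 was lower in all 5 mutant libraries, against 8.19% of all tested genes (0.76% by library size).

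SR proteins bind exons and help to choose splice sites. Their 5 genes summed to 4.17 and 4.22 scaled CPM in rnp-2(mg582), 5.71 in rnp-2(tm4058), 3.66 in mog-2(ok1221), 4.99 in rnp-3(ok1424), and 4.59 and 5.40 in wildtype. Most of it came from rsp-4, which encodes an SC35-like protein, with 90 and 104 reads in rnp-2(mg582), 53 in rnp-2(tm4058), 82 in mog-2(ok1221), 114 in rnp-3(ok1424), and 168 and 313 in wildtype. Its scaled levels were 2.91 and 3.13 in rnp-2(mg582), 4.39 in rnp-2(tm4058), 2.40 in mog-2(ok1221), 3.87 in rnp-3(ok1424), and 3.43 and 4.13 in wildtype. In scaled CPM both rnp-2(mg582) libraries and mog-2(ok1221) were below wildtype, rnp-3(ok1424) lay between the wildtype libraries and rnp-2(tm4058) above them. By library size the order differed, with 0.371 CPM in rnp-2(tm4058) against 3.54 in wildtype 2, and 11.5 in rnp-3(ok1424) against 8.07 in wildtype 1. The gene rsp-6 had 26 and 24 reads in rnp-2(mg582), 11 in rnp-2(tm4058), 20 in mog-2(ok1221), 22 in rnp-3(ok1424), and 40 and 73 in wildtype. The others, rsp-1, rsp-2 and rsp-7, had 47, 32 and 26 reads over the 7 libraries.

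**Figure D3:**
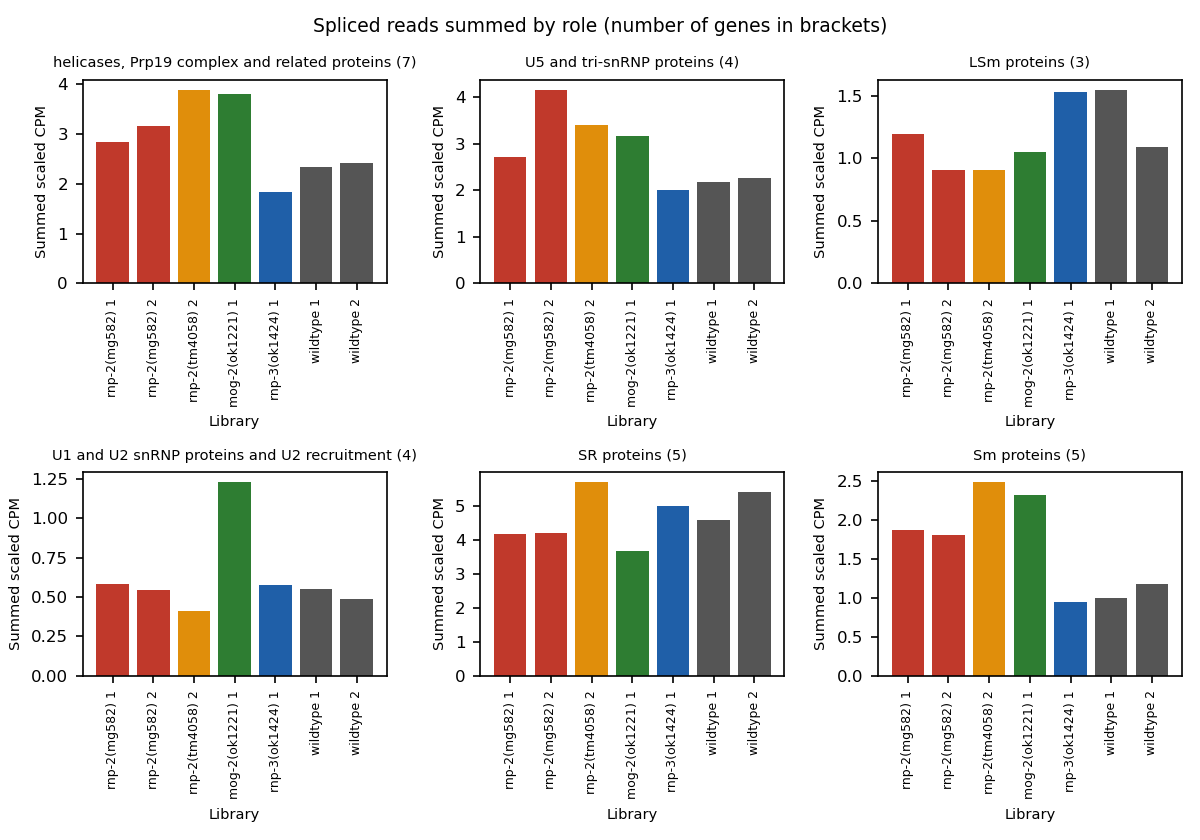
Scaled CPM of spliced reads summed over the genes of each role, 1 bar per library (mutants left, wildtype right). The Sm bars of the rnp-2 and mog-2(ok1221) libraries reach 1.81 to 2.48, against 0.9997 and 1.17 in wildtype, while by library size both rnp-2 sums of experiment 2 are below wildtype 2. The SR bars of both groups overlap.

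Reads of rsp-4 were concentrated at a single junction. The last intron, intron 4 of the transcript EEED8.7b, held 862 of 924 reads (93.3%), while introns 1 and 2 held 35 and 27. It held 87.8% and 95.2% of the rsp-4 reads in rnp-2(mg582), 94.3% in rnp-2(tm4058), 90.2% in mog-2(ok1221), 92.1% in rnp-3(ok1424), and 91.1% and 96.5% in wildtype, with overlapping 95% exact binomial intervals within each experiment. This intron lies between coding exons in transcript EEED8.7a and in the 3′ UTR of EEED8.7b, whose coding sequence ends in an extra exon of 186 bases (II:5388150-5388335). Reads of intron 2, which joins to that extra exon, were 6 and 1 in rnp-2(mg582), 3 in rnp-2(tm4058), 3 in mog-2(ok1221), 5 in rnp-3(ok1424), and 4 and 5 in wildtype. In rsp-6 the last intron likewise held most reads, 178 of 216 (82.4%).

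**Figure D4:**
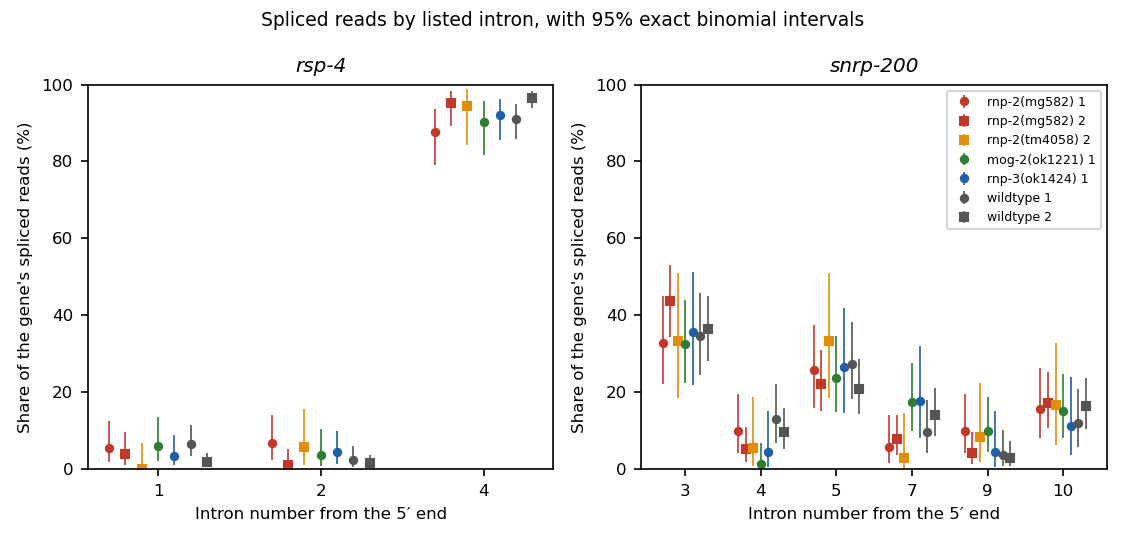
Share of the spliced reads of rsp-4 (left) and snrp-200 (right) at each listed intron, numbered from the 5′ end, in every library with 95% exact binomial intervals (mutants first, wildtype in grey last). Intron 4 of rsp-4 takes 87.8% to 96.5% in all libraries, and snrp-200 is spread over 6 introns in which the libraries overlap.

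In snrp-200 intron 3 held the most reads, or as many as intron 5, in every library. Intron 3 held 32.9% and 43.6% of its reads in rnp-2(mg582), 33.3% in rnp-2(tm4058), 32.5% in mog-2(ok1221), 35.6% in rnp-3(ok1424), and 34.5% and 36.3% in wildtype. Intron 5 held 20.7% to 33.3% in the 7 libraries. Reads at single junctions of snrp-200 numbered 51 or fewer per library, so smaller shifts in these shares could not be seen at this depth.

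In the test of rnp-2(mg582) against wildtype no splicing gene passed an adjusted p of 0.05 in limma, while 8.36% of all tested genes did (297 of 3551). None of the 28 had an unadjusted p under 0.05, against 21.8% of all tested genes. By edgeR's quasi-likelihood test none passed either (9.18% of all tested genes), with 1, snr-2, at an unadjusted p under 0.05 (21.7% of all). DESeq2 gave no adjusted p for 14 of the 28 and called none of the others (7.74% of the 2312 genes with an adjusted p), with 0 at an unadjusted p under 0.05 (10.3% of all). Adjusted p in limma ran from 0.228 to 0.997. The largest positive changes were those of snrp-200 (log2 0.57 ± 0.28 SE, adjusted p = 0.281), snr-2 (0.44 ± 0.19, adjusted p = 0.228) and snr-6 (0.36 ± 0.23, adjusted p = 0.421). The largest negative ones were those of rsp-4 (-0.28 ± 0.26, adjusted p = 0.588), lsm-8 (-0.19 ± 0.21, adjusted p = 0.657) and lsm-4 (-0.19 ± 0.22, adjusted p = 0.677). Changes were on the log2(scaled CPM + 0.5) scale, which understates those of low genes. The median log2 change was 0.06 over the splicing genes and -0.02 over all genes, with 16 above 0 and 12 below. By library size alone it was -0.13 and -0.24, with 9 above 0.

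The 2 rnp-2(mg582) libraries lay above both wildtype libraries in scaled CPM for 9 of the 28 genes (32.1%), against 23.7% of all tested genes, and below them for 3 (10.7%), against 27.4%. Those above were snrp-200, snr-2, snr-3, rnp-2, mog-1, skp-1, smu-1, F53B7.3 and F56D2.6, and those below were rnp-3, rsp-4 and teg-4. By library size none was above (3.21% of all tested genes) and 2 were below, rnp-3 and prp-19 (14.6%). Within experiments the median log2 difference of the splicing genes was 0.05 for rnp-2(mg582) 1 over wildtype 1 and 0.09 for rnp-2(mg582) 2 over wildtype 2, against -0.00 and -0.04 for the whole set of tested genes. In the fit with experiment as a block no splicing gene passed, against 20.4% of all tested genes, and snr-2, snr-6 and snrp-200 had an unadjusted p under 0.05, against 31% of all tested genes. Without rnp-2(mg582) 2 the log2 change of snr-6 was 0.88, and its 12 reads in rnp-2(mg582) 1 then made up the whole mutant group. The snr-6 line reached the listing level of about 0.505 CPM only in rnp-2(mg582) 1 (0.823 CPM), so this rise is in part built into the listing.

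**Figure D5:**
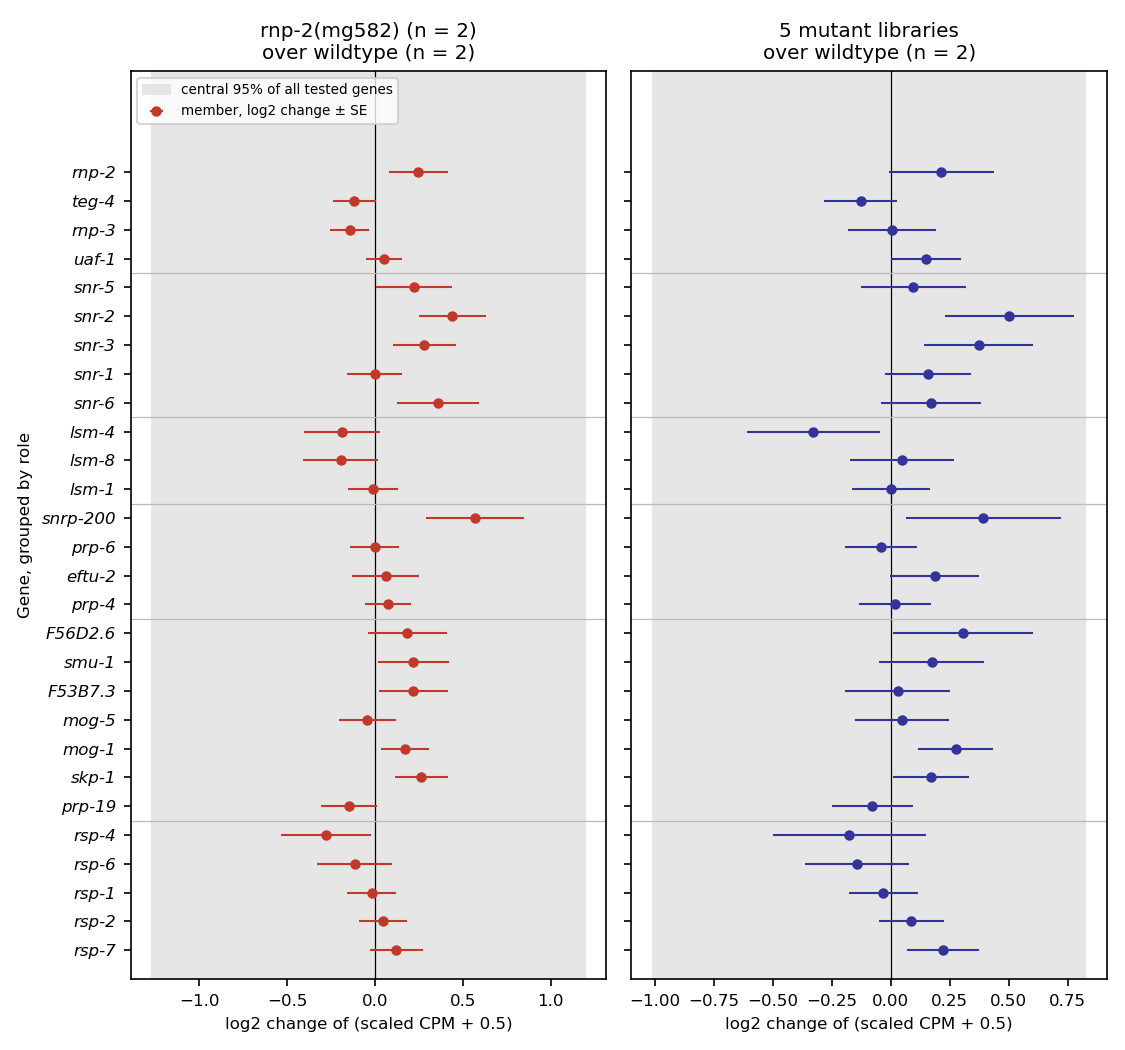
Change in spliced reads of each splicing gene, log2 of (scaled CPM + 0.5) with its standard error from limma, for rnp-2(mg582) over wildtype (left) and for all 5 mutant libraries over wildtype (right). The grey band holds the central 95% of all tested genes, and every splicing gene lies inside it in both panels. Because of the added 0.5, genes with low wildtype levels could not fall below the band even without any reads.

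For the 5 mutant libraries against wildtype, which asks what the mutants share, neither a splicing gene nor any other gene passed in limma (0% of 3551, with 328 at an unadjusted p under 0.05) or edgeR (0%, with 359 unadjusted), while DESeq2 called 53 genes (1.66% of those with an adjusted p). None of the splicing genes had an unadjusted p under 0.05, against 9.24% of all tested genes, and none passed in edgeR or in DESeq2, which gave no adjusted p for 4. Unadjusted, 0 were under 0.05 in both, against 10.1% of all genes in edgeR and 9.35% in DESeq2. The lowest adjusted p was 0.619, for snr-2, which averaged 0.593 ± 0.296 scaled CPM in the mutants (SD, n = 5) and 0.248 ± 0.00397 in wildtype (SD, n = 2), a log2 change of 0.50 ± 0.27 SE. The next largest increases were 0.39 ± 0.33 in snrp-200 and 0.37 ± 0.23 in snr-3, and the largest decreases were -0.33 ± 0.28 in lsm-4, -0.17 ± 0.32 in rsp-4 and -0.14 ± 0.22 in rsp-6. Of the 28 changes 21 were above 0 (48.4% of all tested genes), with a median of 0.09 against -0.01 over all genes. By library size 13 were above 0. Several of the 28 reached the listing level of about 0.505 CPM only in a mutant library, so the count above 0 is in part built into the listing. Without mog-2(ok1221), 16 of 26 tested splicing genes were above 0, with a median of 0.06. The rnp-2 genotypes supply 3 of the 5 libraries, and all comparisons share the same wildtype libraries.

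In rnp-2(tm4058), snr-2 rose (log2 0.998 ± 0.23 SE, adjusted p = 0.0446 in limma) and was the only 1 of the 28 past the threshold, against 8% of all tested genes. The value rests on 12 reads in 1 library, with a 95% exact Poisson interval of 0.513 to 1.74 scaled CPM, and on a spread taken from the genotypes with 2 libraries. By library size alone its log2 change was -0.59 and all 28 genes were below 0. Only 1.69% of all tested genes were above 0 on that scale, since spliced junction reads were a small part of that library. In edgeR (adjusted p = 0.0890, 3.89% of all tested genes called), DESeq2 (0.491, 6.45% of those with an adjusted p) and without wildtype 1 (0.244), wildtype 2 (0.138) or either rnp-2(mg582) library (0.0655 and 0.0522) it did not pass. With experiment as a block snr-2 (adjusted p = 0.00513) rose and lsm-4 (log2 -0.81, adjusted p = 0.0295) fell, as 18.7% of all tested genes passed there. Without the block lsm-4 had a log2 of -0.94 ± 0.26 and an adjusted p of 0.0683. At an unadjusted p under 0.05 there were 4 genes, snr-2, snr-3, lsm-4 and F56D2.6, 14.3% of the 28 against 26.7% of all tested genes. The median log2 change was 0.14 over the splicing genes, with 18 above 0, and -0.08 over all genes.

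In mog-2(ok1221) no splicing gene passed in limma, against 2.17% of all tested genes, and none in edgeR, against 3.24%, or DESeq2, against 5.34% of genes with an adjusted p, which 19 of the 28 lacked. Unadjusted, 5 were under 0.05 in edgeR (18.5% of all) and 0 in DESeq2 (7.43%). At an unadjusted p under 0.05 limma had 8 genes (28.6%), against 20% of all tested genes. They were snr-1, snr-2, snr-3, rnp-2, rnp-3, uaf-1, mog-1 and rsp-7, all with higher levels in mog-2(ok1221) than in the wildtype mean. The junctions of mog-1, rnp-3 and rsp-7 reached the listing level of about 0.505 CPM only in mog-2(ok1221) (0.918, 0.842 and 0.612 CPM). So did those of eftu-2, prp-4, prp-19, rsp-2, skp-1 and teg-4, and both junctions of snr-1 (7 and 9 reads in mog-2(ok1221)). Their rises, and the count of changes above 0 given next, are thus in part built into the listing. Of the 28 changes 23 were above 0, with a median of 0.25 against -0.01 over all genes, and by library size 27 were above 0, with medians of 0.71 and 0.44. Within experiment 1, mog-2(ok1221) over wildtype 1 gave 22 above 0 and a median of 0.21. The change of snr-3 was 0.67 ± 0.22 SE (adjusted p = 0.147), and it passed with experiment as a block (0.76, adjusted p = 0.0302), where 15.1% of all tested genes did.

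In rnp-3(ok1424) no splicing gene passed in limma, against 0.197% of all tested genes, none in edgeR (0.141% of all) and none with experiment as a block (4.25%). DESeq2 gave no adjusted p for 21 of the 28 and called none of the others (1.06% of genes with an adjusted p). Unadjusted, 3 were under 0.05 in edgeR (10.3% of all) and 0 in DESeq2 (2.73%). At an unadjusted p under 0.05 there were 2, teg-4 (log2 -0.44 ± 0.15 SE) and uaf-1 (0.42 ± 0.12), against 12.2% of all tested genes. The uaf-1 junction reached the listing level of about 0.505 CPM only in rnp-3(ok1424) (0.606 CPM, 6 reads), so its rise there is in part built into the listing. Changes were above 0 for 11 and below for 17 of the 28, with a median of -0.04 against -0.03 over all genes. Whether the responses in mog-2(ok1221) and rnp-3(ok1424) differ was not tested, as each has 1 library.

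Unspliced reads were nearly absent at these genes. The 28 genes had 28 reads that crossed an intron-exon boundary, 0.783% of their junction reads, against 7.60% over all genes of the table. Such reads were found at 12 of the 28 genes, against 60.02% of all genes. By library there were 3 and 3 in rnp-2(mg582), 3 in rnp-2(tm4058), 2 in mog-2(ok1221), 3 in rnp-3(ok1424), and 0 and 14 in wildtype. The gene lsm-1 had 10 of them, 1 in rnp-2(mg582) 2 and 9 in wildtype 2, and snrp-200 had 5, 3 in rnp-3(ok1424) and 2 in wildtype 2. The genes rsp-7, skp-1 and snr-5 had 2 each. No splicing gene reached the filter for unspliced reads or the filter for their ratio to spliced reads, so a change in either was not detectable at this depth. Without the filter 12 were tested in limma for rnp-2(mg582) and for the mutants together, and none passed (0% of 2231 genes in both). Unadjusted, 0 were under 0.05, against 15% and 5.56% of those genes.

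Other genes of the pathway were counted by list. Of 56 further spliceosome genes 10 were measured, of 34 SR proteins and regulators of alternative splicing 10, and of 19 genes of the exon junction complex, snRNP assembly and nonsense-mediated decay 8. None of these 28 further genes rose or fell past an adjusted p of 0.05 in limma in any of the 5 comparisons. At an unadjusted p under 0.05 there were 2 in rnp-2(mg582) (21.8% of all tested genes), 5 in rnp-2(tm4058) (26.7%), 5 in mog-2(ok1221) (20%), 3 in rnp-3(ok1424) (12.2%) and 1 in the mutants together (9.24%). DESeq2 called none, with 1 unadjusted in the mutants together (9.35% of all tested genes) and 0 elsewhere (2.73% to 10.3%). By edgeR 1 to 3 were under 0.05 unadjusted in each comparison, against 10.1% to 21.7% of all tested genes. It called only asd-2, a STAR-family regulator of alternative splicing, in rnp-2(mg582) (log2 1.64, adjusted p = 0.0406), against 9.18% of all tested genes. With experiment as a block asd-2 passed in rnp-2(mg582) (log2 0.73), where 20.4% of all tested genes did. In that fit smg-3 (0.81) and smg-6 (0.68), both factors of nonsense-mediated decay, passed in rnp-2(tm4058) (18.7% of all), and hel-1 (0.81) and swp-1 (-0.86) in mog-2(ok1221) (15.1%). These genes are named because they passed, a choice made with the values known. The median log2 changes of the 3 lists in rnp-2(mg582) were 0.03, 0.09 and -0.01, against -0.02 over all genes.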

How the data were processed

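The deposited table gives CPM at splice junctions, per the file headers, in columns called IEJ (read here as unspliced) and EEJ (read here as spliced). The submitters' processing notes name STAR and SAMtools. Genome build, multi-mapping rule and strand use: not given in the sources used here. Whole reads were recovered from the CPM steps (100% of values whole within 1e-06 reads). Lines were joined to introns by the WBcel235 annotation, introns of a gene with near-equal reads were merged, and reads were summed per gene. Because the unit is CPM, limma 3.58.1 (R 4.3.3, trended empirical Bayes, Benjamini-Hochberg) on log2(scaled CPM + 0.5) was the main test, after edgeR 4.0.16 TMM scaling and filterByExpr (minimum count 10, total 15). Alternatives were edgeR's quasi-likelihood test and DESeq2 1.42.0 on recovered reads, other scalings, filters, a pseudocount of 0.1, experiment as a block and leaving out each library. On simulated counts with 200 of 3114 genes changed by a log2 of 3 in rnp-2(mg582), 138 were recovered with 1 false call. The simulated counts had the same fixed spread for all genes and no experiment effect. Changes as small as those of the splicing genes were not simulated. The experiment number in the titles pairs libraries: over 3551 genes the experiment differences of rnp-2(mg582) and wildtype correlated at 0.382. The members, lists and named genes (the mutated genes, those with mean of at least 1 scaled CPM, those past the threshold, the 3 largest changes each way and the 3 with most unspliced reads) were chosen with earlier results of these data known.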

Additional observations from a re-analysis of the deposited data

How the results depend on the processing

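The number of splicing genes past the threshold in rnp-2(tm4058) was 1 (brackets give the calls among all tested genes, here 284 of 3551). It was 0 with library size alone (0 of 3551), without a filter (124 of 3643) and with introns not merged (250 of 3551). It was also 0 at a mean of at least 1 CPM (163 of 839, 2 splicing genes tested), in edgeR (138 of 3551) and in DESeq2 (118 of 1830). With a pseudocount of 0.1 (397 of 3551) and with experiment as a replicate block (665 of 3551) it was 2. In rnp-2(mg582) the number was 0 without mog-2(ok1221) (288 of 3489), without rnp-3(ok1424) (302 of 3466) and without rnp-2(tm4058) (299 of 3182). Calls of fits that left rnp-2(mg582) or wildtype with 1 library are not counted here. In mog-2(ok1221) the count was 0, and 1 with experiment as a replicate block, which changed no call of a splicing gene in rnp-2(mg582), rnp-3(ok1424) or the mutants together. The log2 change of snr-2 in rnp-2(tm4058) was -0.59 with library size alone, that of snrp-200 in the mutants together was -0.027 with library size alone (0.39 with TMM), and that of lsm-8 in rnp-2(mg582) ran from -0.43 to 0.045 when 1 library was left out, the last without wildtype 1. The cause was not tested. Of 300 values for named genes under the alternatives, 285 kept direction and side of the threshold, 8 lost the call, 4 gained one and 3 changed sign. Leaving out the snr-6 line outside its gene, chosen after seeing the data, changed no count of splicing genes past the threshold. It left 27 of them tested, with 15 changes above 0 in rnp-2(mg582), 20 in the mutants together and 22 in mog-2(ok1221). A genotype with 1 library has no value when that library is left out, and edgeR and DESeq2 were not applied to the ratio. With a median of 58 reads per gene over 7 libraries, depth limits what could be seen.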
